A study of Caenorhabditis elegans with 2 samples.

Results

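The genes hlh-1, unc-120, hnd-1, elt-2, elt-7, end-1, end-3, pha-4, skn-1 and pal-1 encode transcription factors that specify lineages of the Caenorhabditis elegans embryo other than the epidermis. These 10 genes, out of 19985 annotated protein-coding genes, were taken as a list of names, which was drawn up with earlier results of these data known; the rule itself uses no measured value. For each gene a window ran from 5 kb upstream of the annotated 5′ end to the 3′ end, and peaks of the epidermal GATA factor ELT-1 were counted by their summits in that window. The peaks came from chromatin immunoprecipitation and sequencing (ChIP-seq) of mixed-stage hermaphrodite embryos of strain OP354, which carries the unc-119 mutation tm4063 and the integrated array wgIs354. That array makes ELT-1 fused at its C terminus to GFP and FLAG. There was 1 group of 2 biological replicates, immunoprecipitated with an antibody against GFP per the descriptions, although the antibody field reads elt-1. The labels do not give the promoter that drives the transgene or the age of the embryos, whole embryos mix all cell types, and no embryos without the transgene were compared here.

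ELT-1 binds GATA sequences and starts the epidermal programme in the embryo. The other lineages are set up by separate cascades. The maternal factor SKN-1 specifies the EMS blastomere, and in its daughter E the GATA factors END-1 and END-3 start the gut programme, which ELT-7 and ELT-2 then carry forward. The homeodomain protein PAL-1, related to Caudal, specifies the C and D blastomeres, whose descendants include body wall muscle and, from C, also epidermis. HLH-1 (related to MyoD), UNC-120 (related to serum response factor) and HND-1 (related to Hand proteins) together specify body wall muscle, and the FoxA factor PHA-4 specifies the pharynx. Members of the GATA family recognise similar sites.

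Sequences are shown for the places on which the results turn, from the WBcel235 assembly (ce11) as given by RefSeq, on the strand of the gene. Capitals mark WGATAR, which is GATA with A or T before it and A or G after it, on either strand. A common form is AGATAA. On the opposite strand this form is written TTATCT. The windows at skn-1 (chrIV:5657239-5657439, minus strand) and pal-1 (chrIII:4806405-4806605, minus strand) hold 201 bp centred on the strongest pooled summit of each gene. That of end-3 (chrV:14013782-14014081, plus strand) is 300 bp long and takes in the pooled summit upstream of the gene and the nearby summit of replicate 2. That of elt-2 (chrX:10479562-10479762, plus strand) is the 201 bp with the most WGATAR in the 5 kb upstream of the gene, where the pooled list had no peak. That of elt-1 (chrIV:9615617-9615817, plus strand), the strongest summit of the genome, is shown for comparison.
skn-1: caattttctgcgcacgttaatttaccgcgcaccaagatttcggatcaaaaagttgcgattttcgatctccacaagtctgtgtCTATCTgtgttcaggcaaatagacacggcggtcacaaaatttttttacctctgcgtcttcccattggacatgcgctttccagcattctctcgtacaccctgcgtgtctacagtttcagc
pal-1: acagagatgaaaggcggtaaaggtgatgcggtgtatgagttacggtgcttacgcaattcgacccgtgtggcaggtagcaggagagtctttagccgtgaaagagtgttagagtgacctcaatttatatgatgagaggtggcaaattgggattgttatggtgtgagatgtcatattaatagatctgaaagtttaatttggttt
end-3: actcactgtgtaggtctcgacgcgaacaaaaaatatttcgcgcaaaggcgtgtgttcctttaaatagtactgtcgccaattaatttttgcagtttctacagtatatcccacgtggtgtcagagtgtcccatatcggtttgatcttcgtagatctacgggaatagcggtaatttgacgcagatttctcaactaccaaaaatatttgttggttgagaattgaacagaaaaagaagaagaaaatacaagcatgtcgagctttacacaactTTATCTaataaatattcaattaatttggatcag
elt-2: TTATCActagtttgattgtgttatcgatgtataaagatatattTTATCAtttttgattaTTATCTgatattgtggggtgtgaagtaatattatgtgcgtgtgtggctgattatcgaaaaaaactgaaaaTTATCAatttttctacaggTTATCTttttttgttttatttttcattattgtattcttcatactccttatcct
elt-1: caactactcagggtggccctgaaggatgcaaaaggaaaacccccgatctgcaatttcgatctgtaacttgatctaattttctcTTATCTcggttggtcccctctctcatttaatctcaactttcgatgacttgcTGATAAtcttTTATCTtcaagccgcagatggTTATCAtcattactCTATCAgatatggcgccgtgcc

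The skn-1 window held 1 WGATAR site and the pal-1 window 0. In the end-3 run the single site starts at position −646 from the 5′ end, 5 sites lie in the elt-2 run, and 5 lie at the elt-1 summit.

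Of the 10 genes, 1 had a summit in the main list of 1400 peaks, which the submitters thresholded by the irreproducible discovery rate (IDR), a measure of agreement between replicates. That gene was skn-1, with 1 summit. By the same rule 9.28% of all protein-coding genes held one, and among the 13749 genes with windows as long as those of the 10 genes (6228 to 14346 bp) 9.24% did, so 1 of 10 is close to the background. The submitters also deposited relaxed lists, which hold peaks and background and serve here as the limit of detection. Signal in the pooled relaxed list, the value that the submitters' peak caller gave each peak, ran from 4.89 to 823, and the IDR list began at 27.8, which is 5.68 times the lowest relaxed signal. The IDR peaks were the 1400 pooled peaks of highest signal, so presence in the IDR list matched a cut on pooled signal. A summit in the pooled relaxed list was present for 8 of 10 genes, against 80.2% of all genes. Presence in a relaxed list was thus the usual state of a gene, and the count of the 10 genes with any pooled summit was at the background.

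The ranks separated the genes. Ranks count from 1 for the highest signal among 30000 pooled relaxed peaks, 30000 of replicate 1 and 26001 of replicate 2. The strongest pooled summit ranked 1015 at skn-1, 1701 at end-3 and 2200 at pal-1. It ranked 11588 at pha-4, 18335 at end-1, 18651 at hnd-1, 18986 at hlh-1 and 23167 at unc-120, and elt-2 and elt-7 had no pooled summit. Thus 3 of 10 genes had a summit of rank 3000 or better, a state found at 19.3% of all genes. The same 3 genes were those with a summit among the 10000 highest pooled peaks, where 48.1% of all genes had one. Neither difference was tested. The median rank of the strongest summit was 14961.5 over the 8 genes with a pooled summit and 7575 over all genes with one. The deposited −log10 q-value ran from 0.07 to 3.53 over the pooled relaxed list. At the strongest pooled summits of pha-4, end-1, hnd-1, hlh-1 and unc-120 it lay between 0.17 (unc-120) and 0.59 (pha-4).

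**Figure D1:**
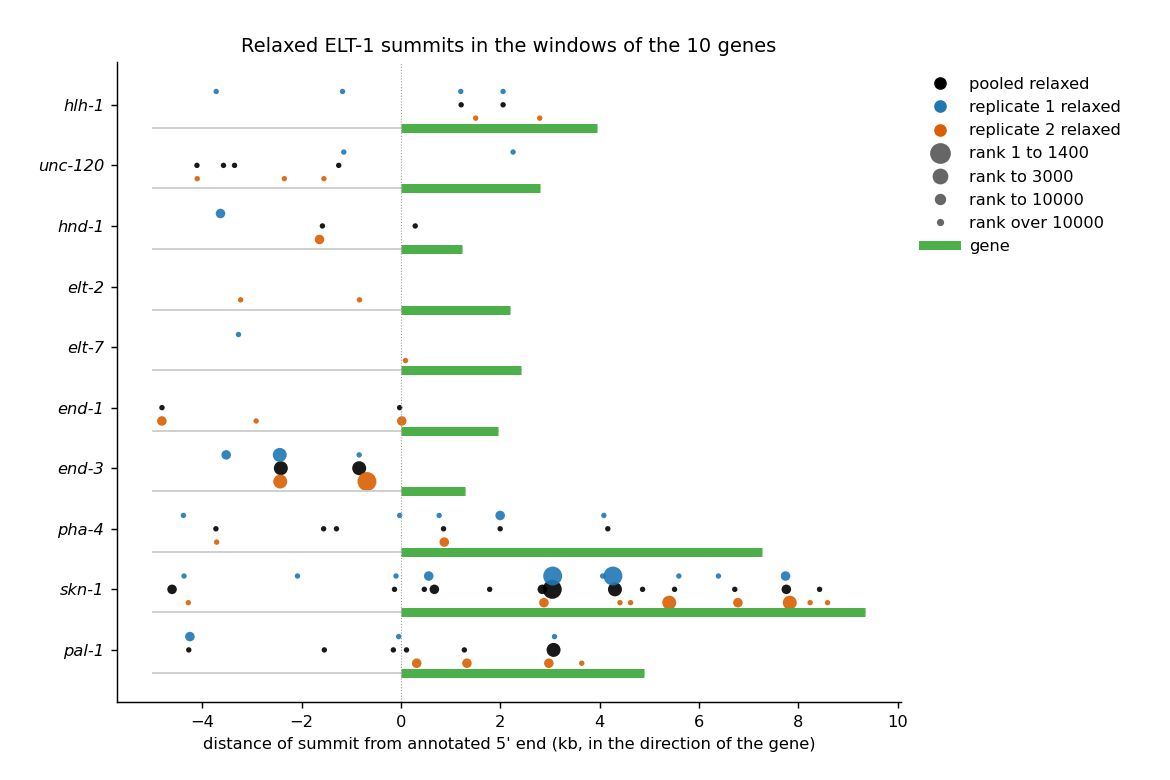
Summits of the 3 relaxed lists around the 10 genes, by distance from the annotated 5′ end in kb (negative, upstream); each dot is a summit, colour gives the list, size the rank, and green bars the genes. The larger dots stand at end-3, skn-1 and pal-1, and elt-2 and elt-7 have no pooled summit.

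**Figure D2:**
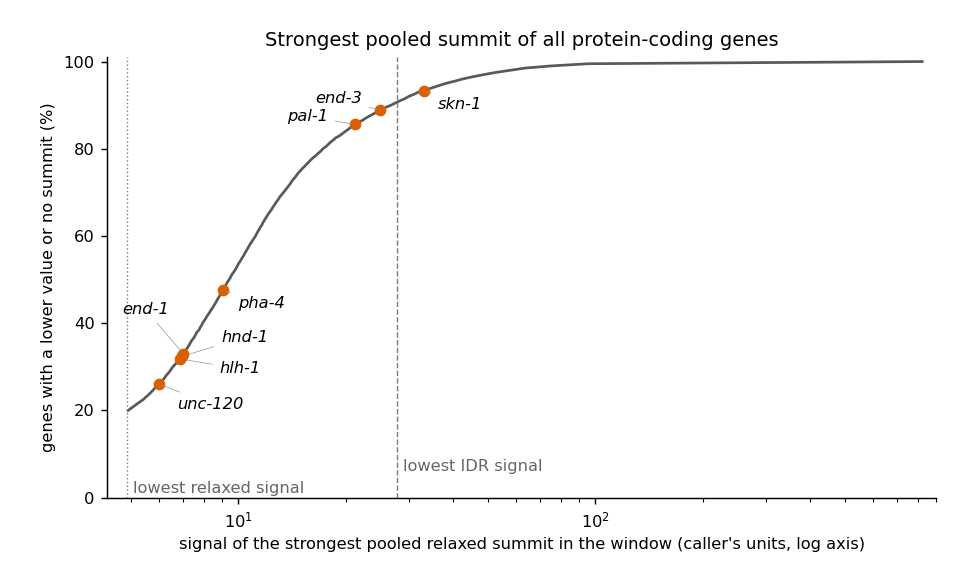
Cumulative share of all 19985 protein-coding genes (y axis, %) by the signal of the strongest pooled relaxed summit in the window (x axis, log scale), with the 8 genes that had one as dots and the lowest relaxed and IDR signals as vertical lines. Only skn-1, at 33.1, stands to the right of the lowest IDR signal.

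skn-1 (WBGene00004804, chromosome IV, 5651039 to 5660384, minus strand) had the IDR peak, from 5657164 to 5657513. Its summit lay in an intron of the longest transcript, at +3045 from the 5′ end of the gene, which is −1734 from the start of transcript T19E7.2c.1. The pooled signal was 33.1, rank 1015 of 1400 in the IDR list, and 6.68% of all genes had a strongest pooled summit at least as high. In replicate 1 the peak within 200 bp had a signal of 27.8 and rank 635. In replicate 2 the peak within 200 bp had a signal of 6.83 and rank 3660, with its summit at +2877. That summit stood 168 bp from the IDR summit and 32 bp from a weaker pooled summit at +2845 (signal 12.3, rank 6168). Replicate 1 listed no summit within 200 bp of the weaker one. Which of the 2 pooled peaks the replicate 2 peak belongs to was not tested. The peaks set side by side here had very different ranks, and that of replicate 2 was not among the 1400 highest. Signals of the lists share no stated scale, and the ranks are the values to set side by side.

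A further 12 pooled relaxed summits lay in the skn-1 window, which at 14346 bp was the longest of the 10. The next, in the same intron at +4307, had a signal of 19.4 and rank 2557. Its peaks ranked 1011 in replicate 1 and 17655 in replicate 2. A summit in coding sequence at +7757, within 13 bp of the start of transcript T19E7.2d.1, ranked 3316 in the pool, 7320 in replicate 1 and 2516 in replicate 2. That last value was the best of the gene in replicate 2, so the strongest skn-1 summits of the 2 replicates stood 4773 bp apart.

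pal-1 (WBGene00003912, chromosome III, 4804688 to 4809576, minus strand) had no IDR summit, and the nearest lay 36044 bp from its 5′ end. Its strongest pooled summit lay in an intron at +3071, with a signal of 21.3 and rank 2200. In replicate 1 the peak within 200 bp had a signal of 3.66 and rank 25678, and in replicate 2 a signal of 6.90 and rank 3569. The pooled rank was better than that in either replicate, and replicate 1 gave the place little weight. The strongest pal-1 summit of replicate 1 lay elsewhere, at −4250 in an intron of the neighbouring gene arl-6, with rank 6459. The other 5 pooled summits of pal-1 ranked from 10347 to 25870.

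The gut genes split between end-3 and the rest. end-3 (WBGene00001311, chromosome V, 14014695 to 14015980, plus strand) had 2 pooled relaxed summits. The stronger, at −2419, had a signal of 24.96 and rank 1701, just below the IDR list. Its −log10 q-value of 3.53 was the highest that the pooled list gives. All IDR peaks had this value, and the end-3 peak was 1 of 302 others that did. It ranked 2033 in replicate 1 (signal 15.2) and 2822 in replicate 2 (signal 7.68), so both replicates listed it at similar ranks. Its nearest 5′ end was that of aip-1, from which it stood at −57.

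The second end-3 summit, at −842, had end-3 as its nearest 5′ end, with a pooled signal of 18.4 and rank 2804. In replicate 2 the peak there had a signal of 11.4, rank 1209 and its summit at −685, which was the best rank of any of the 10 genes in replicate 2. In replicate 1 the peak had a signal of 6.0, rank 12741 and its summit at −842. The GATA site at −646 in the printed run lay within 100 bp of the summit of replicate 2 and not of the pooled summit. It also lay outside the pooled peak, so the pooled list counts no WGATAR at end-3.

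end-1 (WBGene00001310, chromosome V, 13985128 to 13987074, plus strand) had pooled summits at −27 and −4812, with ranks 27393 and 18335. Replicate 2 listed both, at ranks 6096 (signal 5.43) and 7087 (signal 5.03), and replicate 1 listed no summit in the window. The summit at −27 had an AGATAA within 100 bp. The summit at −4812 lay in coding sequence of the neighbouring gene eol-1.

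elt-2 (WBGene00001250, chromosome X, 10481240 to 10483441, plus strand) had no summit in the pooled list or in that of replicate 1. Replicate 2 gave 2 weak summits, at −836 with rank 15251 and a signal of 3.25, and at −3228 with rank 18127 and a signal of 2.85. A pooled signal of 4.89 or more was therefore not detected. The nearest IDR summit lay at +20306, in an intron with vab-3 as its nearest 5′ end. The elt-2 window held 29 WGATAR sites, fewer than the longer windows of skn-1 (49) and pha-4 (36). Per kb it was the richest of the 10, with 4.03 sites, and 3.0% of all genes had as many per kb or more. The median over all genes was 2.43 per kb. No base of the window lay in a pooled relaxed peak, so by construction none of the 29 sites did.

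elt-7 (WBGene00015981, chromosome V, 4770670 to 4773086, plus strand) also had no pooled summit. Replicate 1 listed a summit at −3290 with rank 29880 of 30000, and replicate 2 a summit at +85 in coding sequence with rank 15640. The 2 places lay 3375 bp apart. The nearest IDR summit was at −39090.

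The 3 muscle genes had pooled summits of low rank. hlh-1 (WBGene00001948, chromosome II, 4518574 to 4522528, plus strand) had 2, both in introns, at +1211 with a signal of 6.86 and rank 18986 and at +2055 with a signal of 6.19 and rank 22172. Replicate 1 listed peaks within 200 bp of both, at ranks 16009 and 27053, and replicate 2 listed neither. The strongest summits of the replicates lay at −1177 in replicate 1 (rank 14939) and at +1503 in replicate 2 (rank 11538). The nearest IDR summit was 41626 bp away.

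hnd-1 (WBGene00001981, chromosome X, 11684561 to 11685788, plus strand) had pooled summits at −1582 and +286, with ranks 18651 and 19935. In replicate 2 the peak at −1651 had a signal of 7.38 and rank 3080, and replicate 1 had none within 200 bp of it. Replicate 1 in turn listed a summit at −3646, in the 5′ UTR of T04F8.7, with rank 6769, that replicate 2 did not. An IDR peak with a signal of 33.95 had its summit at +5799, outside the window, with C44C10.10 as its nearest 5′ end.

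unc-120 (WBGene00006844, chromosome I, 8460225 to 8463015, plus strand) had 4 pooled summits, all upstream, with signals from 5.09 to 6.0 and ranks from 23167 to 28626. Its strongest summits ranked 23031 in replicate 1, at −1152, and 15803 in replicate 2, at −1552. An IDR summit with a signal of 34.2 lay at −6143, outside the window, with F10D11.6 as its nearest 5′ end. For the 3 muscle genes, then, 67.6% to 73.9% of all genes had a strongest pooled summit at least as high. In replicates 1 and 2 alone this share was 62.4% and 55.3% for hlh-1 and 76.1% and 66.1% for unc-120. For hnd-1 it was only 37.2% and 19.5%, from summits 1995 bp apart.

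pha-4 (WBGene00004013, chromosome V, 20753052 to 20760317, plus strand) had 6 pooled summits with signals from 6.20 to 9.08. The strongest, in an intron at +1996, which is −443 from the start of transcript F38A6.1b.1, ranked 11588 in the pool and 4307 in replicate 1 (signal 10.4). Replicate 2 listed no summit within 200 bp of it. A second intronic summit at +856 ranked 14862 and was near a peak in both replicates, at ranks 25663 and 5880. In the pooled list the pharynx gene thus stood in the middle of all genes, 52.3% of which had a strongest summit at least as high. By the strongest summit of a single replicate this share was 25.8% in replicate 1 and 34.2% in replicate 2. Those 2 summits lay 1125 bp apart. The nearest IDR summit of pha-4 lay at −20499.

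**Figure D3:**
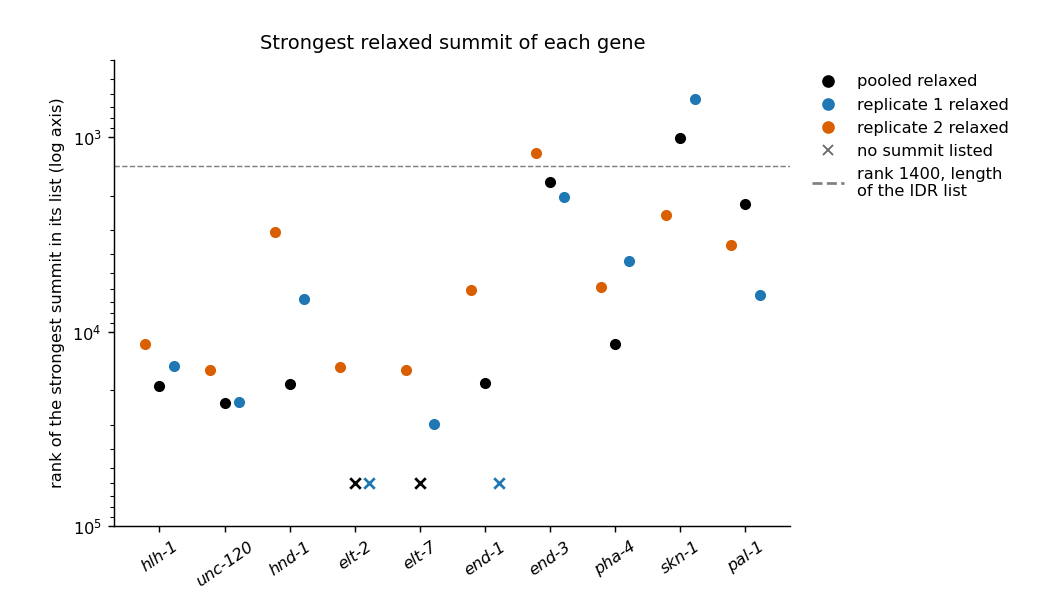
Rank of the strongest summit in each gene's window in the pooled list and in each replicate (log axis, best ranks at the top), crosses standing for no summit and the dashed line for rank 1400. skn-1 lies above the line in the pool and in replicate 1, end-3 in replicate 2, and the other 8 genes in no list.

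The replicates were set side by side over all 10 genes. Replicate 1 listed a summit for 8 genes and replicate 2 for all 10. Summits of both replicates within 200 bp of each other were found in 4 windows, those of end-3, pha-4, skn-1 and pal-1, against 38.4% of all genes. Among the 1400 highest peaks of each replicate, skn-1 had 2 summits in replicate 1 and end-3 had 1 in replicate 2. No gene of the 10 had a summit among the highest of both, and 5.48% of all genes did. For the 8 genes with a summit in both relaxed lists, the strongest summits of the replicates stood from 400 bp apart at unc-120 to 7226 bp apart at pal-1, so that 0 of 8 lay within 200 bp. Over the 14277 genes with summits in both lists this share was 23.7%. With 8 genes such a count is small, and no test was made.

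In all, 37 pooled summits lay in the 10 windows, 20 within the body of 1 of the 10 genes and 17 upstream of it. Some of the 17 lay inside neighbouring genes. Of the 37 summits, 28 ranked over 10000. The 10000 highest are the smaller part of the 30000 pooled summits, so most summits of the whole list rank over 10000 by construction. Over the whole genome, WGATAR lay within 100 bp of 65.2% of the summits ranked 1 to 1400 (95% Wilson interval 62.7 to 67.7%), of 51.2% of those ranked 1401 to 3000 (48.8 to 53.7%) and of 36.2% of those ranked 20001 to 30000 (35.3 to 37.2%). The share was 35.7% over 498866 adjoining windows of 201 bp that tile the nuclear chromosomes. Summits of both replicates within 200 bp fell from 96.9% to 79.2% and 5.56% of peaks over the same 3 ranges.

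**Figure D4:**
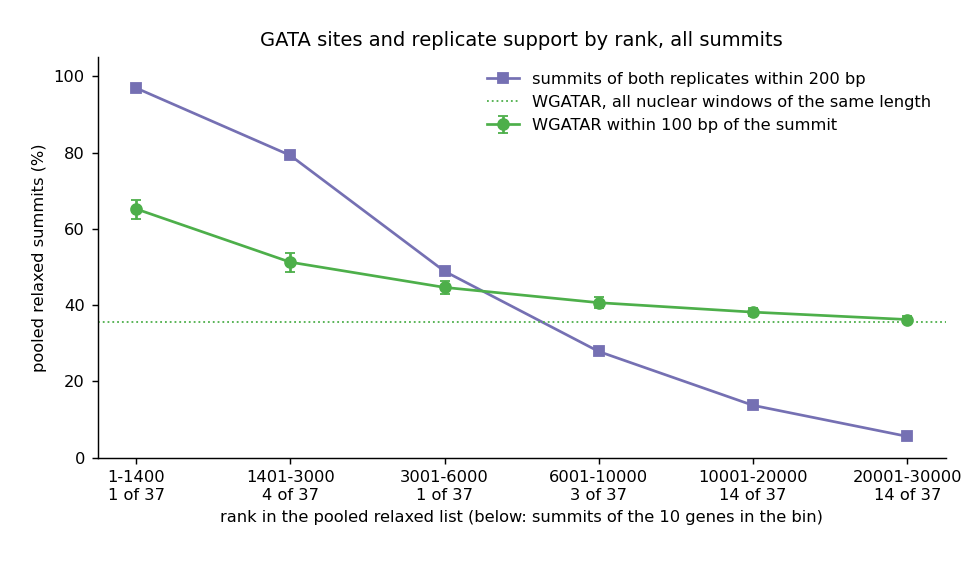
Share of all pooled relaxed summits (y axis, %) with WGATAR within 100 bp (green, bars are 95% Wilson intervals) and with summits of both replicates within 200 bp (violet), by rank in 6 ranges (x axis), with the number of the 37 summits of the 10 genes under each. At ranks 20001 to 30000, which hold 14 of the 37, the GATA share is 36.2%, near the 35.7% of all nuclear windows.

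Around the summits of the 10 genes, 12 of 37 (32.4%) had a WGATAR within 100 bp, against 40.4% of all pooled summits. An AGATAA lay within 100 bp of 4 of the 37, at skn-1 and end-1. AGATAA was found in 11.5% of nuclear windows of the same length. Its share was 40.9% at pooled summits ranked 1 to 1400 and 12.9% at those ranked 20001 to 30000. The IDR peak of skn-1 was 1 of the 12, with an AGATAG at +3027 written CTATCT in the printed run. The strongest summits of end-3 and pal-1 were not among them. The 10 windows held 248 WGATAR sites, of which 27 (10.9%) lay in a pooled relaxed peak, where 14.3% of the window bases lay. Over the nuclear genome these shares were 11.6% of sites and 10.1% of bases. Of the 27 sites, 15 were at skn-1, 30.5% of whose window was covered by pooled peaks.

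The skn-1 run also holds AGACGCAG, on the other strand, as ctgcgtct from +3077. This sequence was looked for because it was known to be frequent at ELT-1 summits, so its share there is no finding. It was found on either strand within 100 bp of 8.93% of IDR summits, 3.04% of pooled relaxed summits and in 1.06% of nuclear windows of the same length. Of the 37 summits of the 10 genes, 2 had it, the IDR summit of skn-1 and a summit of pha-4 at −3726 with rank 21184. In the skn-1 run it does not overlap the WGATAR, which starts at +3027.

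Other genes of the same cascades were read in the same windows, from lists that leave out the 10 genes. Values in brackets are the signal of the strongest IDR summit of a gene, and positions are those of that summit. Of 20 further muscle genes, 2 had an IDR summit. These were unc-45, a myosin chaperone (51.2), and pat-3, the beta integrin of muscle attachments (33.3), and both summits lay nearer to the 5′ end of another gene. Of 9 further endoderm regulators 2 had one. These were sys-1, a beta-catenin (87.7), the stronger of whose 2 summits lay nearest to his-68, and pop-1, the TCF factor that restricts the gut fate to E (36.2, in an intron). Of 17 intestine effector genes 3 had one, namely erm-1 (40.1, nearest to hpo-32), the actin gene act-5 (39.3, in an intron) and the yolk protein gene vit-2 (31.7). In the pharynx list 1 of 17 had one, hlh-6, a regulator of pharyngeal glands (68.4), whose summit lay in an intron of dnj-20.

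Among 16 further genes of the early blastomeres and mesoderm 5 had an IDR summit: the T-box genes tbx-8 and tbx-9, which shared a summit of signal 65.4, pie-1 (35.8), mex-3 (33.9) and lag-1 (29.6). mex-3 encodes an RNA-binding protein that represses translation of pal-1 mRNA in the early embryo. Of 15 neuron regulators 4 had one, hlh-2 (76.2), lin-32 (58.8, nearest to T14F9.2), cnd-1 (46.2, in the 5′ UTR) and hlh-14 (29.7, nearest to F10C1.9), which encode bHLH factors. All of these counts rest on few genes, and none was tested against the background.

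The regulators of the epidermis, read by the same rule, gave 11 of 14 genes with an IDR summit and 26 summits counted gene by gene, with a median of 294.5 for the rank of the strongest pooled summit. Their windows were longer, with a median of 10472 bp against 7604 bp for the 10 genes. The strongest IDR summits of elt-6, lin-22, blmp-1 and lin-26 lay nearest to the 5′ end of another gene. elt-1 held 8 of the 26 summits, up to a signal of 823, and the share of copies of the transgene in that signal was not tested. nhr-25 had 3 summits, up to 119, and lin-26 had 2, up to 32.5, nearest to the gene lir-1. elt-3 had none, and its strongest pooled summit of 24.8 ranked 1712, beside 1701 for end-3. Thus skn-1 (33.1) and lin-26 (32.5), and end-3 and elt-3, had nearly the same strongest signal although they stand in different lists.

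Among the 12 listed genes of the GATA family, the 4 with an IDR summit were elt-1, egl-18, egl-27 and elt-6. The only IDR summit of elt-6 lay in an intron of its neighbour egl-18, whose 5′ end was the nearest. All 4 gut members described above were without one, as were elt-3, elt-4, med-1 and med-2. By the same rule 9.28% of all protein-coding genes had one, so absence was the usual state of a gene. Neither the count of the family nor that of the gut members was tested. The strongest pooled summit of med-1, which acts between skn-1 and the end genes, ranked 4420, that of elt-4 ranked 9389, and med-2 had none. med-1 and med-2 are close copies of each other, so reads from one could have been assigned to the other or set aside, which was not tested.

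**Figure D5:**
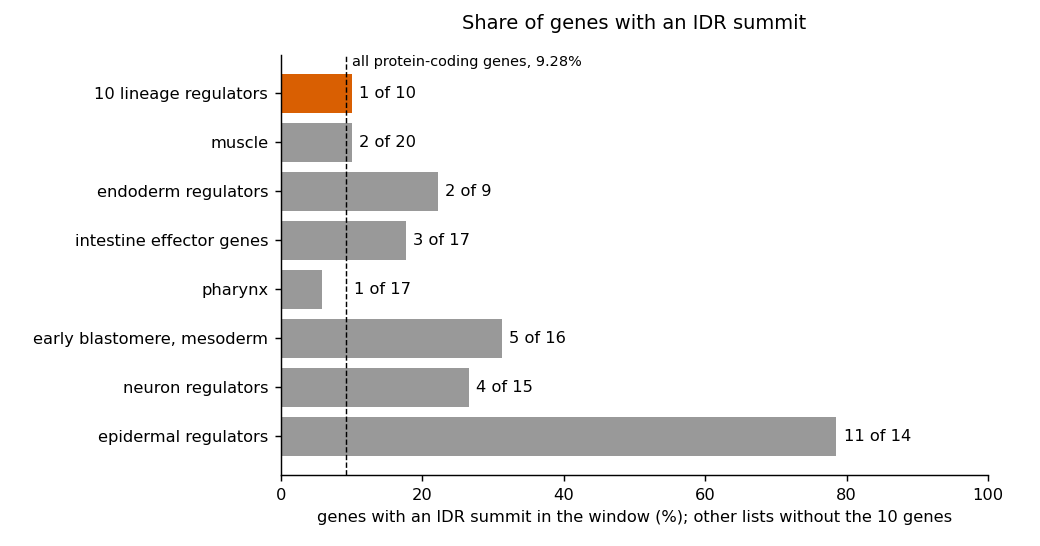
Share of genes with an IDR summit in the window (x axis, %) for the 10 lineage regulators and for 7 lists without them, with counts beside the bars and the share of all protein-coding genes (9.28%) as a dashed line. The bar of the 10 genes (1 of 10) lies beside the line and that of the epidermal regulators at 11 of 14.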

How the data were processed

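ELT-1-GFP ChIP-seq of C. elegans embryos was read from 4 peak lists on ce11. Per the text lists of files deposited with the records, the IDR list derives from relaxed lists that the authors made for each replicate and for the pooled alignments, against a control set. The deposited signal of a peak carries no scale shared by the lists, and it served for ranks inside a list. The −log10 q-values, also deposited by the authors, are quoted for a few pooled peaks and for the range of the pooled list. Caller, aligner and IDR threshold are not given in the sources used here. Read depth is unknown. The ce10 lists were not used here.

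Summits were placed in windows of genes of Ensembl release 115 on WBcel235. Positions are 1-based, and a plus or minus sign before a distance counts from the annotated 5′ end of the gene. A summit can fall in windows of several genes. Motifs were searched on both strands in 201 bp around summits. The 10 genes and the lists were chosen with earlier results of these data known. The genes named were the 10 members, elt-1, lin-26, elt-3 and nhr-25, up to 4 genes of each list with an IDR summit by signal, and the genes nearest to a summit. Further genes (lag-1, med-1, med-2, elt-4 and the rest of the GATA list) were named after their values were seen. No p-value was computed, since counts of 10 genes from 1 group leave no test over samples. Wilson intervals (95%) cover counting error only. Procedures were tested on simulated data. The software was matplotlib 3.10.9, SciPy 1.17.1, pandas 2.3.3 and numpy 2.4.6 under Python 3.11.15.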

Additional observations from a re-analysis of the deposited data

How the results depend on the processing

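The count of genes with an IDR summit was 1 with 2 kb upstream, with 1 kb past the 3′ end, by interval overlap and by nearest 5′ end. It was 2 with 10 kb upstream, where unc-120 joined skn-1 (14.2% of all genes). It was 0 in promoters, 1000 bp upstream to 200 bp downstream of any transcript start (3.61%), and 0 with the strongest 50% of IDR peaks (4.72%). With the 1400 highest peaks of a single replicate it was 1 each time, end-3 without replicate 1 and skn-1 without replicate 2, and the summits numbered 1 to 2. The count of summits was otherwise that of genes. Genes with a pooled summit numbered 8 (80.2% of all genes), or 9 with 10 kb upstream (89.5%), but 5 in promoters (42.2%) and 3 among the 10000 highest peaks (48.1%). They numbered 8 in replicate 1 alone (82.9%) and 10 in replicate 2 alone (81.9%). Genes with summits of both replicates numbered 4 in the main window (38.4%), 2 in promoters (15.2%), 2 with 100 bp between summits (29.4%), 6 with 500 bp (49.3%) and 6 with 10 kb upstream (52.3%), where elt-2 and unc-120 joined. The IDR summit of skn-1 held WGATAR in windows of 50 and 150 bp to each side and 0 copies of AGATAA. The rank of the strongest summit moved by over 1.5 times in 11 of 23 comparisons with another window or a single replicate, for example at hnd-1 from 18651 to 3080 with replicate 2. The smaller windows count fewer places by construction; other causes were not tested. Read depth is unknown, so the relaxed lists limit what could be detected.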
